A study of Mus musculus with 12 samples.

Results

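The expression of 6 genes of thyroid hormone handling was followed along the mouse cochlea. They were *Crym*, *Dio2*, *Dio3*, *Slc16a10*, *Thra* and *Thrb*, taken as all non-control probes whose gene name in the array files equalled one of these symbols. All 6 genes were on the array, out of 19505 genes measured in all, and together they had 36 probes of 60 bases. RNA came from male C57BL/6 mice aged 6 weeks with no mutation, agent or treatment named in the labels. Each cochlea, with the organ of Corti, the lateral wall and the spiral ganglion neurons, was cut into an apical, a middle and a basal turn. The 3 groups are therefore places in the same organ of untreated adults, with 4 arrays per turn and 12 in all, and 25 ng of total RNA was labeled for each array.

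The thyroid gland releases mostly thyroxine (T4), a prohormone. Transporters carry it across cell membranes, type 2 deiodinase (*Dio2*) turns it into the active hormone T3, and type 3 deiodinase (*Dio3*) inactivates both forms. T3 acts in the nucleus through the receptors encoded by *Thra* and *Thrb*, and in the cytosol it is bound by mu-crystallin, the product of *Crym*. The cochlea needs the hormone to mature: mice without *Thrb* or *Dio2* have impaired hearing, and *CRYM* is a human deafness gene.

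Signals are fluorescence intensities without a unit, scaled so that the 75th percentile of every array was 641.3. A gene's signal is the mean over its probes on the log2 scale, and the mean of a turn is the geometric mean of its 4 arrays. Between 77.4% and 81.4% of the spots of an array were well above background. A difference was called when limma's moderated contrast had a Benjamini-Hochberg adjusted p under 0.05 over all 19505 genes, and a 2-fold call also needed a difference of at least 1 log2 unit. The 4 arrays of a turn shared 1 slide, which no other turn used, so slide and turn cannot be told apart in any comparison below. A turn also holds many cell types, and fewer cells of a type cannot be told apart from less RNA per cell.

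Between apex and base, 3440 genes were called in favor of the apex and 4205 in favor of the base. This split depended on the scaling, being 2267 and 6290 with scaling to the median of each array, and 776 and 14327 with scaling to the spike-in probes. Spike-in scaling placed the median gene at -0.52 log2 units between apex and base, against -0.04 with the 75th percentile, so differences are reported relative to the bulk of the genes on an array.

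Of the 6 genes, 4 were called between apex and base, where 39.2% of all genes were called. *Crym* and *Thra* were higher in the apex, *Dio2* and *Slc16a10* were higher in the base, and *Thra* turned to the base with spike-in scaling. Between middle and base 3 of the 6 genes were called (*Crym*, *Dio2* and *Slc16a10*, with 20.9% of all genes called), and between apex and middle only *Crym* was called (12% of all genes). The number of genes called between apex and middle moved with single arrays, being 863 in favor of the apex and 1480 in favor of the middle turn with all 12 arrays, 431 and 534 without the second apical array, and 2583 in favor of the middle turn without the third middle array. Leaving out apical array 1 or 3, or middle array 2 or 4, also lowered a count in that comparison more than 1.5-fold, and so did middle array 1, basal array 2 or basal array 4 between middle and base, where the lowest counts were 1492 in favor of the middle turn and 1132 in favor of the base. The 2-fold call was passed by *Crym*, in favor of the apex (3.32% of all genes) and of the middle turn (2.21%) over the base, and by *Dio2*, in favor of the base over the apex (1.15%) and over the middle turn (0.451%). The moderated F test over the 3 turns called *Crym*, *Dio2*, *Slc16a10* and *Thra*, 4 of the 6 genes, as it did 38.6% of all genes. The 4 apical arrays lay above the 4 basal arrays for 2 of the 6 genes, *Crym* and *Thra* (16.9% of all genes), and below them for *Dio2* (21.4%). They lay above the middle arrays for the same 2 genes (7.31% of all genes). The middle arrays lay above the basal arrays for *Crym* and *Dio3* (12.5%) and below them for *Dio2* and *Slc16a10* (11.6%).

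**Figure D1:**
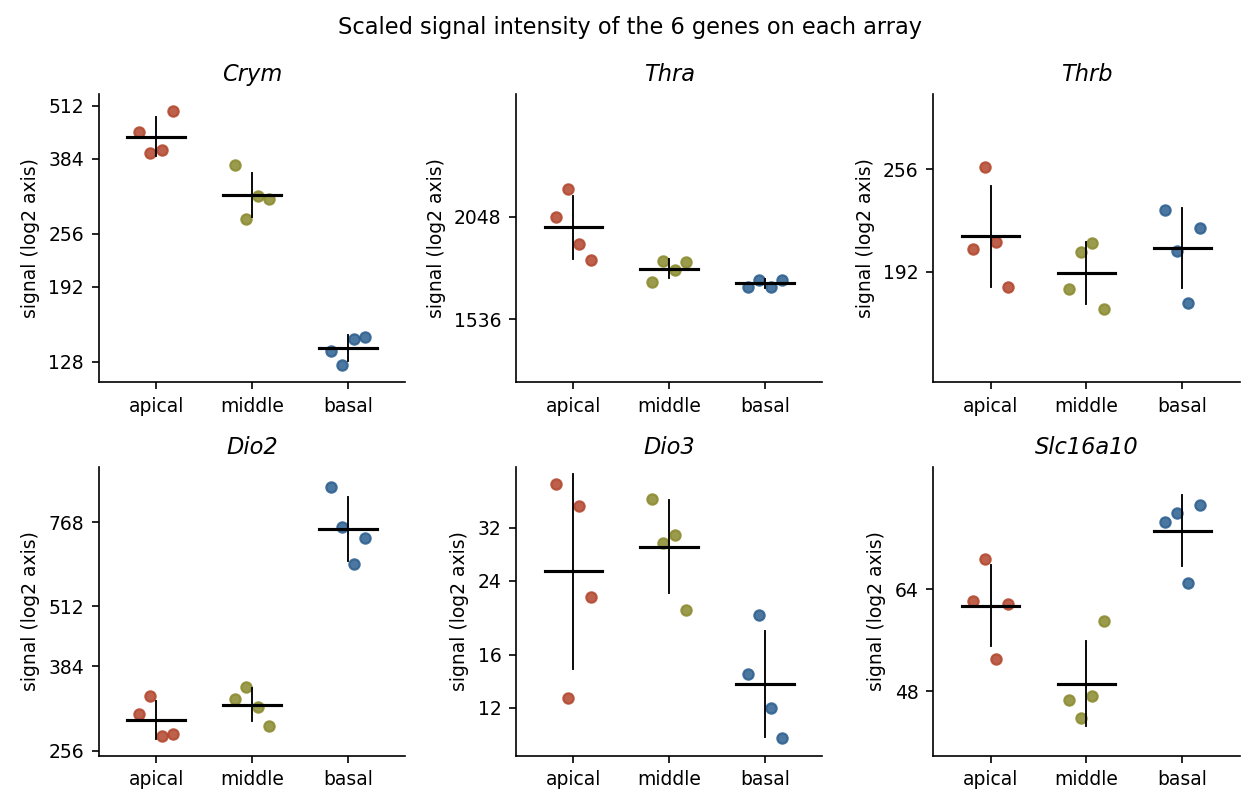
Scaled signal intensity (log2 axis, different range in each panel) of each of the 6 genes on the 4 arrays of each turn; points are arrays, horizontal lines are means and vertical lines are 1 SD on the log2 scale. The 4 basal arrays lie below all others for *Crym* (126 to 146) and above all others for *Dio2* (628 to 910).

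*Crym*, the cytosolic T3-binding protein, fell step by step from apex to base. Its signal was 443, 395, 403 and 497 in the 4 apical arrays. In the middle turn it was 371, 278, 313 and 308. In the basal turn it was 135, 126, 145 and 146. The arrays of the 3 turns did not overlap in any of the 3 comparisons.

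The apical mean of *Crym* was 3.14-fold the basal mean (log2 difference 1.65, SE 0.099, 95% interval 1.43 to 1.87, limma adjusted p = 9.4e-07). The middle turn was 2.29-fold over the base (log2 difference 1.19, adjusted p = 3.8e-05), and the apex was 1.37-fold over the middle turn (0.46, adjusted p = 0.016). The middle turn thus lay 72.4% of the way from base to apex on the log2 scale. The exact permutation test of 4 arrays against 4, two-sided, gave p = 0.0286 for each comparison, the smallest p that 35 splits allow. The difference between apex and middle did not pass with spike-in scaling (0.24, adjusted p = 0.16). With that scaling the middle turn was 0.93 log2 units over the base, short of the 2-fold call. The lowest value of this difference over all alternatives was 0.86.

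*Crym* had 8 probes between 127329970 and 127345493 on the minus strand of chromosome 7 (build mm9). All 8 were higher in apex than base, by 1.40 to 1.74 log2 units, where 18% of all probes were called in that direction. All 8 were also higher in middle turn than base (7.76% of all probes), and 5 of 8 were higher in apex than middle turn (3.04%), a count that was 1 without the first apical array and 0 with spike-in scaling. The first probe was dim and stood well above background on 4 apical, 3 middle and 1 basal arrays. None of the 8 probes differed from the mean of the other probes of the gene, a limma test that 10.4% of probes passed between apex and base, and 1 of the 8 had an unadjusted p under 0.05. The sequences of 2 probes from inside the gene are given as examples of what was measured, in lower case from 5′ to 3′ on the coding strand.
Crym probe 3 at chr7:127342762-127342821: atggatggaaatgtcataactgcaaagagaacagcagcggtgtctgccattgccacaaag
Crym probe 5 at chr7:127338856-127338915: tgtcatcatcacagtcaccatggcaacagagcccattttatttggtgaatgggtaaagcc
The signal of probe 3 was 345 in the apical, 257 in the middle and 103 in the basal turn. The signal of probe 5 was 402, 273 and 122 in the same order.

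*Dio2*, the enzyme that makes T3 from T4 inside the cell, had the opposite order, but with a single step. Its signal was 305, 333, 275 and 278 in the 4 apical arrays. In the middle turn it was 328, 348, 316 and 288. In the basal turn it was 910, 751, 628 and 711. All basal arrays lay above all others, while the apical and middle arrays overlapped.

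The basal mean of *Dio2* was 2.50-fold the apical mean (log2 apical minus basal -1.32, SE 0.110, 95% interval -1.57 to -1.08, limma adjusted p = 7.9e-06). It was 2.33-fold the mean of the middle turn (log2 middle minus basal -1.22, adjusted p = 6.0e-05). Apex and middle turn differed by -0.11 log2 units (95% interval -0.35 to 0.14, adjusted p = 0.54). The gene had 2 probes on the minus strand of chromosome 12 of mm9, and both were called higher in the base than in the apex (16.4% of all probes) and than in the middle turn (6.02%). The first of them, nearest the 5′ end, is given here as the sequence behind the smaller of both differences, with a log2 difference of -1.08 between apex and base.
Dio2 probe 1 at chr12:91976503-91976562: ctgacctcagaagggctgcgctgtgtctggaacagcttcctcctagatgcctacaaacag
The second probe had a log2 difference of -1.57.

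A factor common to an array cancels in the ratio of *Crym* to *Dio2*. It was 7.85-fold higher in apex than base and 5.32-fold higher in middle turn than base, with no overlap of arrays and an exact permutation p of 0.0286 for both. *Crym* and *Dio2* each separated from the base without overlap, in opposite directions. The separation of their ratio from the base and its p were therefore fixed and are no further test. Between apex and middle turn the ratio differed 1.47-fold, again without overlap of arrays.

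*Dio3*, the inactivating deiodinase, was close to the limit of measurement. It was read by 1 probe at 111518792 to 111518851 on the plus strand of chromosome 12. Its signal was 40.6, 12.6, 36.1 and 22.0 in the apical arrays. The middle arrays gave 37.5, 29.5, 30.8 and 20.5, and the basal arrays 14.4, 19.9, 11.98 and 10.2.

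The *Dio3* probe was well above background on 2 apical arrays, 1 middle array and no basal array. All middle arrays were above all basal arrays, but with the probe not well above background on any basal array and on 1 of 4 middle arrays, no fold is given. The limma contrasts gave adjusted p = 0.050 for middle against base, just above the threshold, 0.068 for apex against base and 0.75 for apex against middle. The call of middle against base changed with small changes of the fit, such as using only the arrays of both turns (adjusted p = 0.026) or taking the sample number as a block (0.048). Without the second apical array, which had the lowest apical signal, the contrast of apex and base passed the threshold (adjusted p = 0.0080).

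*Slc16a10*, the aromatic amino acid transporter MCT10 that also carries thyroid hormone, was lowest in the middle turn. Its signal was 61.9, 69.7, 52.7 and 61.4 in the apical arrays. The middle arrays gave 46.8, 44.6, 47.4 and 58.4, and the basal arrays 77.4, 79.2, 65.1 and 81.0. Basal and middle arrays did not overlap, and apical arrays overlapped both.

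The base was 1.54-fold over the middle turn (log2 middle minus basal -0.62, SE 0.109, limma adjusted p = 0.0034) and 1.23-fold over the apex (log2 apical minus basal -0.30, adjusted p = 0.045). Apex and middle turn differed by 0.32 log2 units, which missed the threshold (adjusted p = 0.080) and passed it with the sample number as a block (0.049). Both calls were fragile. Of the 7 probes, on the minus strand of chromosome 10 from 39756480 to 39861568, the first and the fourth were not well above background on any of the 12 arrays. The first had a signal of 23.4 in the apical, 7.56 in the middle and 19.5 in the basal turn. It differed from the mean of the other probes in each comparison. The limma adjusted p was 0.011 for apex against base, 0.0019 for apex against middle and 0.012 for middle against base. With only probes well above background, the differences were -0.32 for middle against base (adjusted p = 0.053) and -0.22 for apex against base (adjusted p = 0.12). The difference between apex and base also lost its call without apical array 1, 3 or 4, middle array 1 or 3, or basal array 1, 2 or 4, each left out alone, with log2 differences between -0.31 and -0.23 in those fits.
Slc16a10 probe 3 at chr10:39796564-39796623: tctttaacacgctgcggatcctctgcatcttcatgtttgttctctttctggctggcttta
The probe, shown because it was well above background on all 12 arrays, had a signal of 132 in the apical, 113 in the middle and 140 in the basal turn and was called in no comparison.

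**Figure D2:**
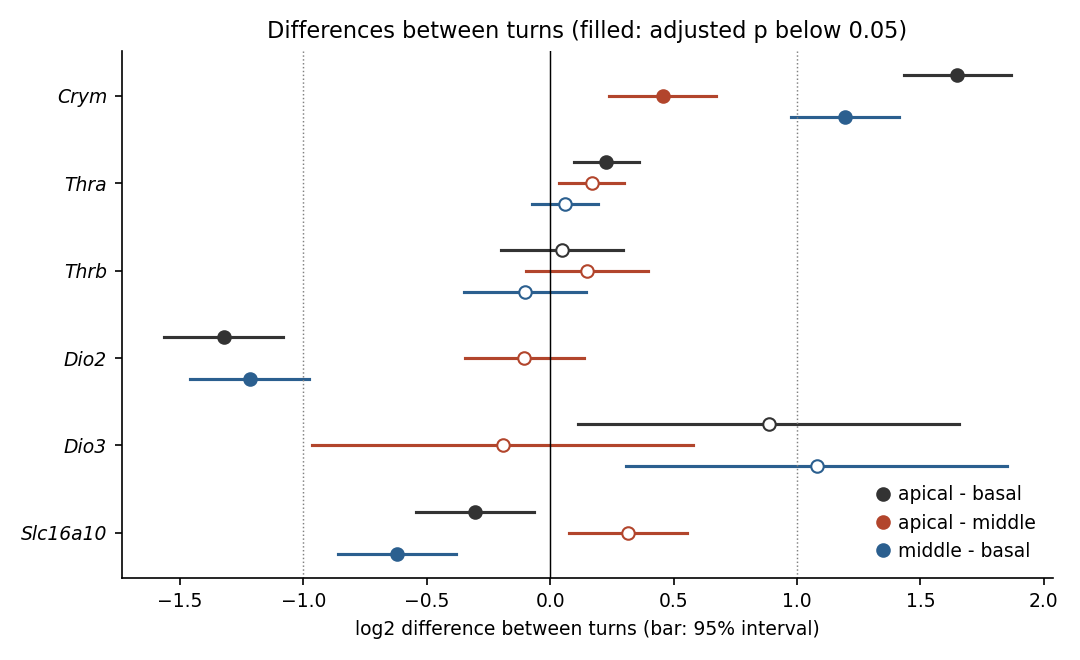
Log2 difference between turns for each of the 6 genes, with 95% interval bars from limma; filled points have an adjusted p below 0.05 over all genes, and dotted lines mark 2-fold. *Crym* and *Dio2* pass the dotted lines in opposite directions in both comparisons with the base, and the *Thrb* intervals all cross 0.

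*Thra*, the receptor alpha gene, which also gives rise to a variant that binds no hormone, had signals of 2047, 2218, 1900 and 1815 in the apical arrays. The middle arrays gave 1707, 1811, 1762 and 1806, and the basal arrays 1683, 1717, 1681 and 1716. The apical arrays lay above all others, by a small margin, and the middle and basal arrays overlapped.

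The apical mean was 1.17-fold the basal mean (log2 difference 0.23, 95% interval 0.09 to 0.36, limma adjusted p = 0.011). With spike-in scaling it was -0.26, a lower apex (adjusted p = 0.019), while the median of all genes was then at -0.52. Apex and middle turn differed by 0.17 log2 units (adjusted p = 0.092), and middle and base by 0.06 (adjusted p = 0.50). The call between apex and base was lost with scaling to the median (0.11, adjusted p = 0.18) and with log2 of the mean linear probe signal (0.10, adjusted p = 0.21).

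The 8 *Thra* probes lie on the plus strand of chromosome 11 of mm9, from 98603261 to 98626415. Of these, 5 were called higher in apex than base (18% of all probes), and 1 was called without the first apical array. With spike-in scaling, which turned the gene's mean to the base, all 8 were called between apex and base, counted over both directions. The second probe from the 5′ end stood apart. Its signal was 2160 in the apical, 1439 in the middle and 1195 in the basal turn, a log2 difference of 0.85 between apex and base. Against the mean of the other 7 probes this was 0.72 log2 units more (limma adjusted p = 0.0013). The last probe was 0.33 log2 units below the others in the same comparison (adjusted p = 0.013). Without the second probe, a variant tried after its values were seen, the gene's difference between apex and base was 0.14 log2 units and was not called (adjusted p = 0.077). Probes 3 to 6 were each called on their own, by 0.20 to 0.24 log2 units. The second probe is printed because the gene's mean over probes lost its call without it. Its capitals mark the open reading frame from the ATG at which the receptor begins, and the lower case letters lie before it.
Thra probe 2 at chr11:98614882-98614941: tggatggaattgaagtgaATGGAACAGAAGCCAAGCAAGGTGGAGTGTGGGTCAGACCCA
Whether this probe binds other labeled RNA was not tested.

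*Thrb*, the receptor beta gene needed for hearing, showed no called difference. Its signal was 205, 258, 209 and 184 in the apical arrays. In the middle turn it was 183, 203, 208 and 173. In the basal turn it was 228, 204, 176 and 217. The 3 turns overlapped throughout.

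Apex and base differed by 0.05 log2 units (95% interval -0.20 to 0.29, limma adjusted p = 0.78). The upper end of that interval corresponds to an apex 1.23-fold over the base. The differences were 0.15 between apex and middle (adjusted p = 0.39) and -0.10 between middle and base (adjusted p = 0.54). With spike-in scaling the base was higher than the apex (-0.44, adjusted p = 0.013), again with the median gene at -0.52. None of the 10 probes, on the plus strand of chromosome 14 from 18493479 to 18869491, was called by limma in any comparison, and at an unadjusted p under 0.05 there was 1 between apex and middle turn and 0 in the other comparisons. With spike-in scaling 7 were called between apex and base and 6 between middle and base. The array reads both receptor isoforms that differ at their start. The sequences below are the probe for the widely used beta1 form and the probe for the beta2 form, which is known from photoreceptors, the pituitary gland and the developing cochlea.
Thrb probe 3, beta1 form, at chr14:18795776-18795835: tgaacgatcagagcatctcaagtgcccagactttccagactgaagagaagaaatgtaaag
Thrb probe 4, beta2 form, at chr14:18814571-18814630: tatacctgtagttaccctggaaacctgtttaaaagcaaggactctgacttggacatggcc
The beta1 probe was well above background on all 12 arrays, at 310 in the apical, 264 in the middle and 303 in the basal turn. The beta2 probe was well above background on 1 of the 12 arrays, an apical one, with means of 13.8, 15.0 and 12.1. No fold between turns can be given for it.

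Both receptors have near-identical DNA-binding domains, built on zinc fingers, and the array has a probe in that region of each gene. The sequences are given because this domain is so alike in both genes. Capitals mark bases that are the same in both where the probes overlap.
Thra probe 3 at chr11:98618260-98618319: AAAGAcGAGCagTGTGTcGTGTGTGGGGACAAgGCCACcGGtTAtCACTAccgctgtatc
Thrb probe 5 at chr14:18835056-18835115: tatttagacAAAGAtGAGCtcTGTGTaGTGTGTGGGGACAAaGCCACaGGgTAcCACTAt
Over the 51 shared positions 42 bases were identical (82.4%). The *Thra* probe was 0.23 log2 units higher in apex than base (limma adjusted p = 0.028) and the *Thrb* probe 0.07 (adjusted p = 0.68). Neither probe differed from the other probes of its own gene. The ratio of *Thra* to *Thrb* within an array differed by 0.18 log2 units between apex and base, with overlapping arrays (exact permutation p = 0.11).

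**Figure D3:**
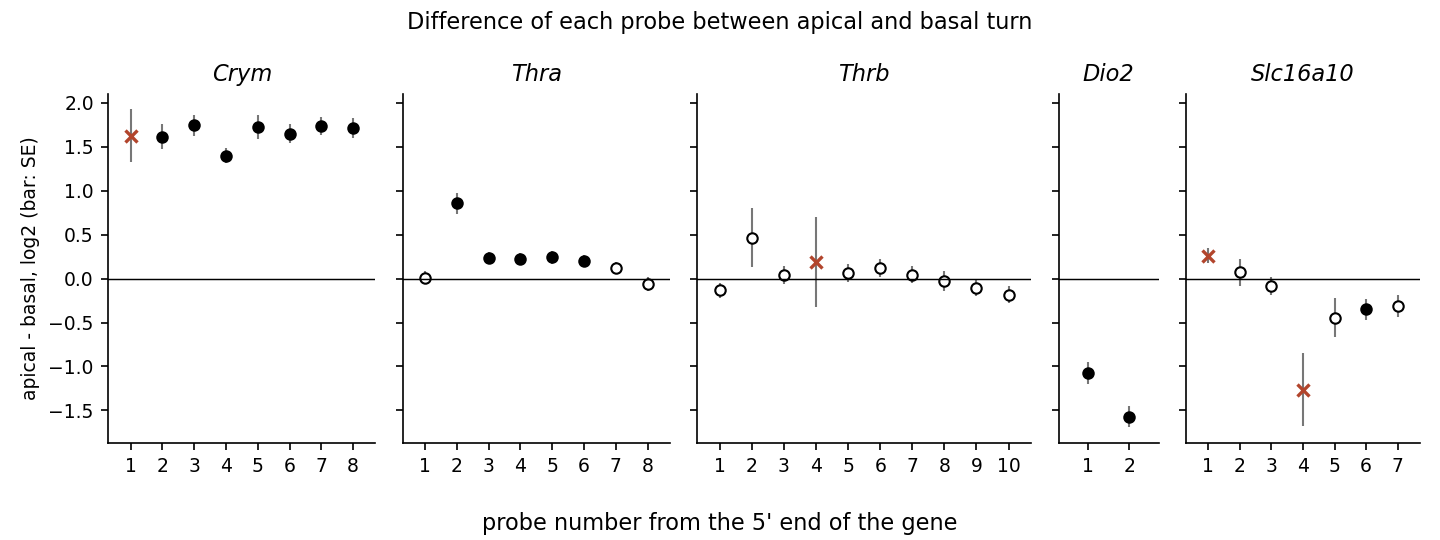
Log2 difference between apical and basal turn (vertical axis, bars are 1 SE) of each probe of the 5 genes with more than 1 probe, numbered from the 5′ end; filled circles are called, open circles are not, and red crosses are probes not well above background on all 12 arrays. All 8 *Crym* probes lie between 1.40 and 1.74, and the second *Thra* probe stands above the other *Thra* probes.

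The other genes that move, modify or read the hormone were followed as lists, with counts over the list genes reported here. Among 11 genes for proteins that can carry thyroid hormone through membranes, 9 were called higher in the base than in the apex, as were 21.6% of all genes. The median log2 difference of the 11 between apex and base was -0.31, against -0.04 over all genes. The number higher in the base was 6 to 8 with any 1 array left out. With spike-in scaling all 11 were called higher in the base, as were 73.5% of all genes, while 3.98% were called higher in the apex.

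*Slco1c1*, which encodes the T4 carrier OATP1C1 of the blood-brain barrier, fell from 6046 in the base to 3333 in the middle turn and 3259 in the apex. *Slco1a4* fell from 1783 in the base to 927 and 648, a 2-fold call between apex and base (log2 difference -1.46). *Slco1b2*, a liver carrier, also passed the 2-fold call, with 37.8 in the base, but only 1 of its 14 probes was well above background on all apical arrays and 6 on all basal arrays, so no size of the difference is given. *Slco1a5*, *Slc7a8*, *Slc3a2*, *Slco4a1*, *Slc10a1* and *Slc16a10* made up the rest of the genes higher in the base, with log2 differences from -0.76 to -0.26.

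The list of deiodinases and proteins that make or remove them had 8 measured genes. *Dio2* was the gene called higher in the base and *Usp33*, a deubiquitinase known to act on type 2 deiodinase, was called higher in the apex (0.25, adjusted p = 0.0089), which turned to -0.23 with spike-in scaling. *Dio1*, the type 1 deiodinase of liver and kidney, was dim, at 29.4, 32.5 and 31.9 from apex to base (adjusted p = 0.70 for apex against base). *Secisbp2*, which is needed to build selenoproteins such as the deiodinases, was at 219, 233 and 221 and was not called.

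Of the 5 receptors and dimer partners, 3 were called higher in the apex and 1 lower (17.6% and 21.6% of all genes), and 0 and 4 with spike-in scaling. *Rxrg*, a retinoid X receptor with which thyroid hormone receptors pair, was 0.76 log2 units higher in apex than base (adjusted p = 0.0038) and 0.77 higher in the middle turn. *Rxra* was higher in the apex by 0.16, which turned to -0.33 with spike-in scaling, and *Rxrb* was lower by 0.32. The 5 corepressor genes had 1 called higher in the apex (*Tbl1xr1*, 0.38, or -0.11 with spike-in scaling) and 1 higher in the base (*Hdac3*, -0.31). Among the 9 coactivators, 3 were called higher in the apex and 1 lower, and 0 and 6 with spike-in scaling, beside the same shares of all genes. *Ncoa1*, the steroid receptor coactivator, rose by 0.45 with the 75th percentile and was at -0.03 with spike-in scaling, and *Kat2b*, a histone acetyltransferase, was lower in the apex by 0.32.

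A list of 17 genes known to respond to thyroid hormone in brain, liver and muscle had 0 genes called higher in the apex and 7 called lower, against 17.6% and 21.6% of all genes. With spike-in scaling all 17 were called lower. The other 10 did not pass the limma test between apex and base, 3 of them being higher in the apex at an unadjusted p under 0.05. *Gbp3*, also among the 10, had the largest difference of the list (apical minus basal -1.52) without a call. The median difference of the list was -0.25 log2 units. *Klf9*, a transcription factor with a classical thyroid hormone response, had a signal of 2509 in the apical, 2789 in the middle and 4141 in the basal turn (apical minus basal -0.72, limma adjusted p = 3.6e-05). *Cbr2*, a carbonyl reductase, had 263, 287 and 713 and passed the 2-fold call in both comparisons with the base (-1.44 and -1.31). *Bcl3* was lower in the apex by 0.96, *Aldh1a1*, which makes retinoic acid, by 0.78, and *Thrsp*, named for its response to the hormone in liver, by 0.57. *Hr*, a corepressor gene induced by T3 in brain, was lower by 0.38, and *Fasn*, the fatty acid synthase gene, by 0.32. Like *Dio2*, these 7 genes differed little between apex and middle turn: none of the 17 was called by limma in that comparison, and 1 had an unadjusted p under 0.05. Between middle and base, 7 were called higher in the base (9.21% of all genes) and 1, *Me1*, higher in the middle turn (11.7%), which turned to the base with spike-in scaling.

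The list of 7 genes that depend on thyroid hormone in the developing cochlea went the other way, with 5 called higher in the apex and 1 lower (17.6% and 21.6% of all genes), and 3 and 2 with spike-in scaling. *Tectb*, a tectorial membrane protein gene, had 996 in the apical, 42.7 in the middle and 41.8 in the basal turn. *Slc26a5*, the gene of the outer hair cell motor prestin, had 344, 211 and 44.9, and *Otof*, of the hair cell synapse, had 278, 221 and 106.5. These 3 genes passed the 2-fold call between apex and base. *Kcnma1* was higher in the apex by 0.78 and *Mbp* by 0.36, the latter turning to the base with spike-in scaling. *Kcnj10*, a potassium channel of the stria vascularis, was lower by 0.77, and *Tecta* was at 19.6, 20.6 and 19.5. *Slc26a5* and *Otof* are also in the hair cell list below, *Kcnj10* in the melanocyte list and *Mbp* in the Schwann cell list.

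**Figure D4:**
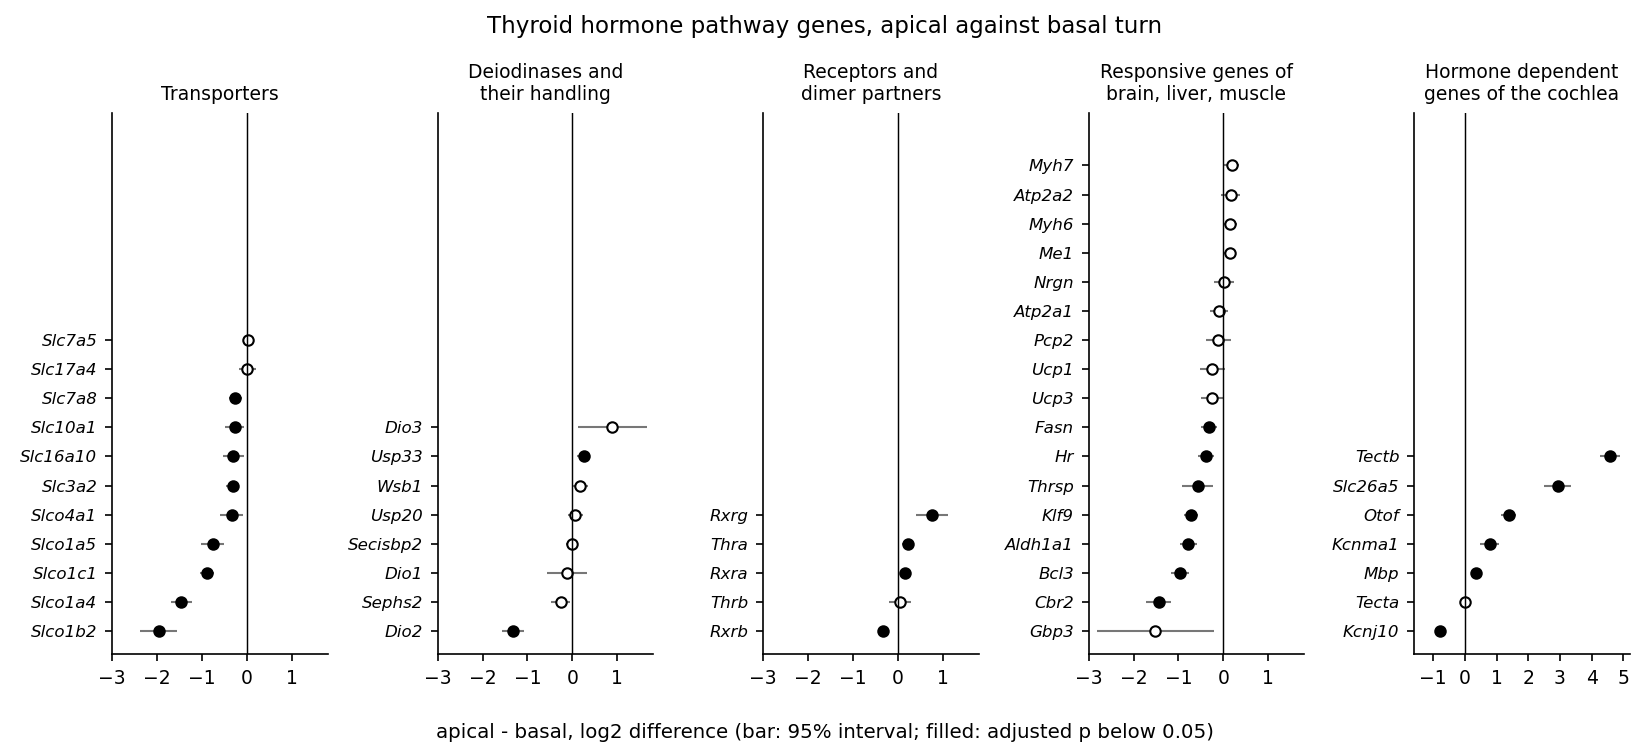
Log2 difference between apical and basal turn of every reported gene of 5 lists, with 95% interval bars (the last panel has a wider axis); filled points have an adjusted p below 0.05 over all genes. Of 11 transporters 9 and of 17 responsive genes 7 are called below 0, and of 7 hormone dependent genes of the cochlea 5 are called above 0.

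Genes of the blood carriers and of the gland itself were mostly dim. *Ttr*, the T4 carrier transthyretin, was the exception among 3 serum carriers, with 1244 in the apical, 2217 in the middle and 3210 in the basal turn, a 2-fold call between the ends (-1.37, adjusted p = 0.00096). Of 14 thyroid gland genes, *Slc5a5*, the iodide transporter, was the gene called between apex and base, lower in the apex by 0.42, where 39.2% of all genes were called. With spike-in scaling all 14 were called lower in the apex. *Serpina7*, *Iyd* and *Nkx2-1* passed the test in a comparison with the middle turn although none of their probes was well above background on all 4 arrays of any turn, so those calls give no fold.

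*Crym* is also an enzyme of lysine breakdown, reducing ketimines in the pipecolate pathway. The other 5 reported genes of that list did not follow it. *Aass*, the first enzyme of lysine breakdown, had 2439 in the apical, 3710 in the middle and 4483 in the basal turn (apical minus basal -0.88, limma adjusted p = 0.0016). *Aldh7a1*, further down the pathway, was lower in the apex by 0.63. *Pipox*, *Aadat* and *Pycr1* did not pass the test.

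By Pearson correlation of log2 signals over the 12 arrays, among 16008 genes with a probe well above background on every array, the genes most like *Crym* were *Rassf6* (r = 0.985), *Apoa4* (0.984), *Slc9a3* (0.983), *St3gal1* (0.983) and *Scube1* (0.981). All 5 were higher in apex than base, from 2.11-fold for *St3gal1* to 10.69-fold for *Apoa4*. The genes most like *Dio2* were *Npnt* (0.983), *Stk38l* (0.982), *Peli1* (0.978), *Il6ra* (0.977) and *Ctnnal1* (0.977). They were higher in the base than in the apex, from 1.23-fold for *Stk38l* to 2.35-fold for *Npnt*. The 4 arrays of a turn share a slide, so the 12 points are not independent. Genes picked for a high correlation with *Crym* or *Dio2* share its difference between turns, so these directions follow from the choice.

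Several lists of cell type markers differed between apex and base, where 17.6% of all genes were called in favor of the apex and 21.6% in favor of the base. Of 12 hair cell markers, 11 were called higher in apex than base and none higher in the base (limma, also 0 at an unadjusted p under 0.05), with summed signals of 25729 to 29632 in the apical, 21357 to 27616 in the middle and 7306 to 15709 in the basal turn. Of 10 spiral ganglion neuron markers 7 favored the apex and 1 the base (27865 to 36449, 25177 to 44808 and 5542 to 23563). Of 9 markers of spiral ligament and limbus fibrocytes, in which *Crym* is known to be expressed, 2 favored the apex and 7 the base, with summed signals of 383494 to 430670, 500997 to 563920 and 689554 to 775801. All 6 macrophage markers were higher in the base (2112 to 2662, 2430 to 2610 and 2995 to 3798), as were 6 of 7 markers of melanocytes and intermediate cells (37414 to 43619, 47428 to 68195 and 57917 to 78253). Of 7 measured Schwann cell markers 6 favored the apex (13204 to 14912, 14102 to 17066 and 6583 to 12693), and of 7 strial marginal cell markers 5 favored the base (20182 to 21973, 24043 to 28407 and 27184 to 31124). Every measured marker of these 7 lists was well above background in at least 1 turn. The middle turn was near the apex for hair cells and neurons and between both ends for fibrocytes and melanocytes. The other lists had no single direction: of 10 supporting cell markers 5 favored the apex and 4 the base. The counts were 2 and 3 of 6 for endothelium and 2 and 2 of 8 for mesenchyme and periosteum. They were 1 and 1 of 10 for bone cells and 0 and 0 of 5 measured for blood. Bone and blood markers stood apart on the fourth apical array, with a mean log2 signal of 8.58 for bone against 6.79 to 7.33 on the other apical arrays, and of 10.39 for blood against 9.02 to 9.27. The part of these cell types in the differences of *Crym*, *Dio2* and the lists was not tested. Neuron markers varied widely within the base, with mean log2 signals of 8.37 to 9.99. *Crym* and *Dio2* kept their calls against the base with each of the 12 arrays left out. Their log2 differences between apex and base were then 1.58 to 1.69 and -1.40 to -1.23. Leaving out 1 array does not test the part of any cell type.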

How the data were processed

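Total RNA of 12 samples, 4 for each cochlear turn, was labeled with cyanine 3 and hybridized to exon arrays, 1 slide per turn. The deposited intensity values are Agilent processed signals that the authors made with Feature Extraction 10.7.3.1, with the background subtracted and no scaling between arrays. Probe positions refer to mm9 (NCBI37). The series matrix held the same values.

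Control spots (7914 of 180880) and 622 spots flagged on any array were left out, leaving 165865 probes. As in the study, signals were normalized to the 75th percentile of the array. Log2 values of probes with 1 gene name were then averaged, with no pseudocount or filter. The study also averaged exon probes per gene, without stating the scale or the grouping. Differences were tested with limma 3.58.1 in R 4.3.3 (lmFit and eBayes over all 12 arrays, Benjamini-Hochberg adjustment over 19505 genes or all probes). Each probe was also tested against the mean of the other probes of its gene, in genes with 3 or more probes. The precision rests on 4 arrays per turn, which came from separate mice per the study. It names 4 mice, so the turns share animals, but the labels do not tie sample numbers to mice, and the fit treats the 12 arrays as independent. No probe was saturated. The scripts were tested on simulated data.

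The 6 genes, the gene lists and the alternatives were chosen with earlier results of these data known, so counts over lists are descriptions. In the lists, 5 genes are not reported here and are left out of the counts and medians, 1 of them in each of 5 lists. Genes named from the lists were those with a 2-fold call, up to 4 others a list by smallest adjusted p, and any transporter, deiodinase or receptor gene. *Fasn*, *Thrsp*, *Me1* and list genes given without a call between apex and base were named outside this rule after their values were seen. For *Crym* and *Dio2*, the 5 genes with the highest correlation were named. The alternatives were quantile, median and spike-in scaling, normexp background correction (offset 50), 16 added to each signal, and other ways to average or group probes. Further ones were flagged spots kept, the series matrix values, other fits and thresholds, and each array left out in turn. Sample numbers were not used to pair turns.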

Additional observations from a re-analysis of the deposited data

Results flagged for a closer look

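No array stood apart from the other 3 of its turn in the mean over probes of any of the 6 genes. Among the 6 genes and the transporter, deiodinase and receptor genes together, 5 of 75 groups of 4 arrays had 1 array far from the others. This was measured as the gap of that array to the nearest array over the range of the group. Chance gives about 1 in 20. In the basal turn, *Slc7a5*, a subunit of an amino acid and thyroid hormone transporter, was at 658 on array 3 and at 576 to 587 on the others (gap over range 0.860). In the middle turn, *Slc7a8* was at 972 on array 1 and at 1151 to 1162 on the others (0.946). *Secisbp2* was at 209 on basal array 2 and at 224 to 226 on the others (0.856). *Usp33* was at 577 on apical array 1 and at 529 to 535 on the others (0.877). *Wsb1*, part of a ubiquitin ligase that acts on type 2 deiodinase, was at 592 on basal array 1 and at 496 to 509 on the others (0.847).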

How the results depend on the processing

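Across 27 alternatives to the main processing, *Crym* and *Dio2* kept their direction and their call in both comparisons with the base (*Crym* apical minus basal 1.16 to 1.69 and *Dio2* -1.81 to -1.13 log2 units). Of all 486 values for the 6 genes, 444 stayed on the same side of the threshold without a called change of sign. The series matrix was counted among the alternatives and held the same values, so its results could not differ. Spike-in scaling turned *Thra* (-0.26) and *Thrb* (-0.44) towards the base and ended the call of *Crym* between apex and middle (0.24), median scaling ended that of *Thra* between apex and base (0.11), and quantile normalization brought *Thra* between apex and middle past the threshold (0.23). Averaging also changed *Thra* (apical minus basal 0.10 with the mean linear signal and 0.14 from its other 7 probes, added after the data had been seen; apical minus middle 0.30 with the median of probes, now called). *Slc16a10* apical minus basal lost its call with normexp (-0.15), the median of probes (-0.28), the mean linear signal (-0.25), only probes well above background (-0.22), grouping by transcript (-0.25) and limma's trend and robust options (-0.30). *Slc16a10* middle minus basal lost it with the median of probes (-0.39) and only probes well above background (-0.32), and apical minus middle gained it with grouping by transcript (0.54). *Dio3* middle minus basal was called with the mean linear signal, with only the arrays of both turns and with trend and robust options. Keeping only probes well above background left no *Dio3* value. Asking for 2-fold as well removed the calls of *Thra* (0.23) and *Slc16a10* (-0.30) between apex and base, *Crym* between apex and middle (0.46) and *Slc16a10* between middle and base (-0.62). With each array left out, apical minus basal ranged from 0.66 to 1.22 for *Dio3* and from -0.37 to -0.23 for *Slc16a10*, apical minus middle from 0.12 to 0.21 for *Thra* and from 0.25 to 0.40 for *Slc16a10*, and middle minus basal from 0.94 to 1.26 for *Dio3*, with calls gained or lost in each. Whether arrays with the same sample number share a mouse was not settled. Of 12 same-numbered pairs of arrays, 6 had a correlation of deviations over 0.1 (-0.037 to 0.227). The mean correlation was 0.095 for same-numbered pairs and -0.031 for other pairs, and 9 of 12 arrays matched their own number best. With the sample number as a replicate block, *Slc16a10* apical minus middle (0.32) and *Dio3* middle minus basal (1.08) passed the threshold and no other call of the 6 genes changed; *Crym* was 1.65 apical minus basal. The moderated F test called 7538 genes and the unmoderated one 7341. The 4 arrays per turn and the dim *Dio3* and *Slc16a10* probes limit what could be seen.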
